A study of Homo sapiens with 12 samples.

Results

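The splicing kinases described here are the 10 genes CLK1, CLK2, CLK3, CLK4, SRPK1, SRPK2, DYRK1A, DYRK1B, DYRK2 and DYRK3, chosen by symbol through their Ensembl identifiers among 32269 genes with counts. RNA was sequenced from AGS and MKN1, established human gastric cancer cell lines, each untreated and after cantharidin sodium, with 3 libraries in each of the 4 groups. The design text calls the libraries biological replicates. The untreated groups received no agent that the labels name, all cells grew in RPMI-1640 with fetal bovine serum, and the labels state neither the dose nor how long treatment lasted. Each line stands for itself only, and whether the replicates were separate cultures is not stated beyond that text.

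CLK kinases are nuclear and DYRK kinases act in the nucleus and cytoplasm. Both are dual-specificity kinases that phosphorylate serine and threonine of their substrates. The DYRK kinases phosphorylate their own tyrosine while they fold. SRPK kinases are found largely in the cytoplasm, where they phosphorylate the arginine-serine (RS) domains of SR proteins, the splicing factors that then enter the nucleus. In the nucleus the CLK kinases phosphorylate RS domains further and release SR proteins from nuclear speckles, and serine-threonine phosphatases remove these phosphates. Cantharidin, the parent compound of the agent used here, is a known inhibitor of the protein phosphatases PP1 and PP2A. Transcript levels do not report kinase activity.

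On GRCh38 in the GENCODE 29 annotation, CLK1 lies at chr2:200853009-200864744 on the minus strand, CLK2 at chr1:155262868-155278491 on the minus strand, CLK3 at chr15:74598500-74645414 on the plus strand and CLK4 at chr5:178602664-178630615 on the minus strand. SRPK1 lies at chr6:35832966-35921342 and SRPK2 at chr7:105110704-105399308, both on the minus strand. DYRK1A lies at chr21:37365573-37526358 on the plus strand, DYRK1B at chr19:39825350-39834201 on the minus strand, DYRK2 at chr12:67648338-67665406 on the plus strand and DYRK3 at chr1:206635536-206684419 on the plus strand. The counts are per gene, so isoforms were not separated. This matters for the CLK genes, whose known regulation includes transcripts that keep introns: 8 of 15 annotated CLK1 transcripts, 7 of 15 of CLK4 and 8 of 27 of CLK3 are annotated as retained-intron forms, against 0 of 7 of CLK2. The library kit does not mark strand and no source states how overlaps were counted. Exon bases shared with another gene made up 6.65% for CLK3, 6.26% for DYRK2, 3.96% for SRPK1, 3.69% for SRPK2, 2.03% for CLK4, 1.35% for DYRK1A and 0.53% for DYRK3, and reads there cannot be assigned with certainty. CLK1, CLK2 and DYRK1B shared 0.0%. The CLK2 pseudogene CLK2P1 held 1 to 29 counts per library, so a misassignment to it was limited to that size.

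Promoter sequences are shown for CLK2 and CLK3, whose treatment effects differed between the lines, for DYRK1B, which differed most between the lines, and for CLK4, a CLK that passed no test. Each is the 250 bases before a RefSeq transcript start on GRCh38.p14, written 5′ to 3′ on the gene's strand, and capitals mark any match to 6 motifs searched on both strands: an E-box (CACGTG), a CRE (TGACGTCA), an AP-1 site (TGANTCA), a heat shock element (GAANNTTC), a CCAAT box (CCAAT, or ATTGG on the other strand) and a GC box (GGGCGG, or CCGCCC). In the 5 sequences the capitals do not run into each other.
CLK2, chr1:155273505-155273754, minus strand: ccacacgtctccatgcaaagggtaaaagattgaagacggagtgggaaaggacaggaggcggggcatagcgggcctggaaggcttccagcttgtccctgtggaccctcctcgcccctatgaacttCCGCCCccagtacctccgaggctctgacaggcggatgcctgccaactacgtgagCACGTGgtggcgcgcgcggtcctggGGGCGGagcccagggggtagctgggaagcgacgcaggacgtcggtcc
CLK3, chr15:74608122-74608371, plus strand: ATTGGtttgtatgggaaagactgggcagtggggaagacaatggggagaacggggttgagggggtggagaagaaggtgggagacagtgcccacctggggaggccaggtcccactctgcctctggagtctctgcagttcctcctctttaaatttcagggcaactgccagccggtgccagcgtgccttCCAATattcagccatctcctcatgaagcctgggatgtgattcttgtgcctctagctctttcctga
CLK3, chr15:74615586-74615835, plus strand: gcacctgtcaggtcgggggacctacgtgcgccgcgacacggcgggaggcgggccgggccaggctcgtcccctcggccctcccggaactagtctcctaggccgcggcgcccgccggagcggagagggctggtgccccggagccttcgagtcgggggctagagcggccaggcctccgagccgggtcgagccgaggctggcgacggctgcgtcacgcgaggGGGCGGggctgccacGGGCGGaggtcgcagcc
CLK4, chr5:178627051-178627300, minus strand: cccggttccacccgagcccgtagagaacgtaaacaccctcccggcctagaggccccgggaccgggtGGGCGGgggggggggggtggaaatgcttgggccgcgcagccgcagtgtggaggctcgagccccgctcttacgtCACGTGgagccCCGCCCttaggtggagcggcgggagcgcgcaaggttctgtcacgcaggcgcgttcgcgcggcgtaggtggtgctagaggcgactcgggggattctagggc
DYRK1B, chr19:39834163-39834412, minus strand: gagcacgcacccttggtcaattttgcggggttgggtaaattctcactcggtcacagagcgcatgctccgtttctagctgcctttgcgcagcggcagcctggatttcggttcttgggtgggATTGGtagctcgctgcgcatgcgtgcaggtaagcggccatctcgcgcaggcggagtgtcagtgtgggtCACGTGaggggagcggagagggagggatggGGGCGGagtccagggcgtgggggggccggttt

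An E-box, the letters bound by basic helix-loop-helix factors such as MYC and USF, is present in the CLK2, CLK4 and DYRK1B sequences and in neither CLK3 sequence. RefSeq gave 19 such windows for 9 of the members, and DYRK2 had no entry. Of the 19 windows, 4 held an E-box (1 each of CLK2, CLK4, DYRK1A and DYRK1B), against 6.34% of 35116 windows of the same length over all genes. A GC box was present in 12 of the 19 windows against 42.6% of all, and a CCAAT box in 4 of 19 against 32.0%. AP-1 letters were present in 1 window, of DYRK1A (6.57% of all), and no window held a CRE (1.65% of all) or the heat shock letters (5.78% of all). CLK2 and CLK4 share the E-box and 2 GC boxes. Of the pair only CLK2 passed a test for treatment below, and a link of the motifs with treatment was not tested. These matches describe letters only, and binding was not measured.

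Library totals were 28604966 to 51604215 counts. All 10 kinases passed the filter on low counts, with 17 counts (DYRK1B in treated AGS) to 10039 counts in a library. Values below are CPM, counts scaled to a common library size with TMM factors, and tests are edgeR quasi-likelihood tests over 20280 genes in a single fit, with Benjamini-Hochberg adjusted p below 0.05 called. Both lines had keratin 8 and 18 (1064 to 3550 CPM as group means). The stomach markers CLDN18, TFF1 and MUC5AC were at 6.5 CPM or less, while GATA6 was at 36.5 to 66.3 CPM. Of the other epithelial markers, KRT19 was at 447.9 to 1091 CPM and CDH1 at 8.11 to 21.7 CPM, while EPCAM was at 429.1 to 438.9 CPM in AGS and at 21.0 to 21.8 CPM in MKN1. The 5 squamous markers did not all separate the lines: KRT5, KRT6A and KRT14 stood at 429 to 1302 CPM in MKN1 and at 0 to 0.303 CPM in AGS, TP63 at 10.5 to 14.8 against 0.0562 to 0.0864 CPM, and SFN at 228 to 239 against 97.1 to 181 CPM. The 3 mesenchymal markers, mostly VIM, summed to 541 to 599 CPM in untreated and 701 to 869 CPM in treated MKN1, against 14.4 to 20.4 CPM in AGS. Among them CDH2 did not separate the lines, at 0.0647 to 0.2 CPM as group means. The 3 fibroblast markers summed to 83.3 to 134 CPM in untreated and 48.5 to 89.8 CPM in treated MKN1, mostly LUM, and the 2 blood markers to 36.6 to 48.2 and 17.3 to 31.2 CPM, nearly all CD68 (PTPRC was at 0.0511 CPM or less there). The part of these markers in the MKN1 results was not tested. Endothelial markers summed to 2.44 CPM at most.

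The library labelled MKN1 untreated replicate 3 stood apart. It correlated with the other untreated MKN1 libraries at r = 0.9702 and 0.9722 over genes, against 0.9853 between those. On the first principal component within MKN1 (35.1% of the variance) it scored 6.73, nearer to the treated libraries (16.3, 35.6 and 48.2) than to the untreated replicates 1 and 2 (-52.5 and -54.4). For several SR protein genes its level lay nearer to the treated than to the other untreated libraries. SRSF6, an SR protein, was at 651.4, 606.2 and 201.5 CPM in the untreated MKN1 libraries 1 to 3 and at 238.1, 228 and 247.8 CPM in the treated ones. For CLK2 it lay with the untreated libraries. Whether its label is right was not tested, so each MKN1 treatment value depends on it. The kinases' MKN1 changes are therefore given with and without it.

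**Figure D1:**
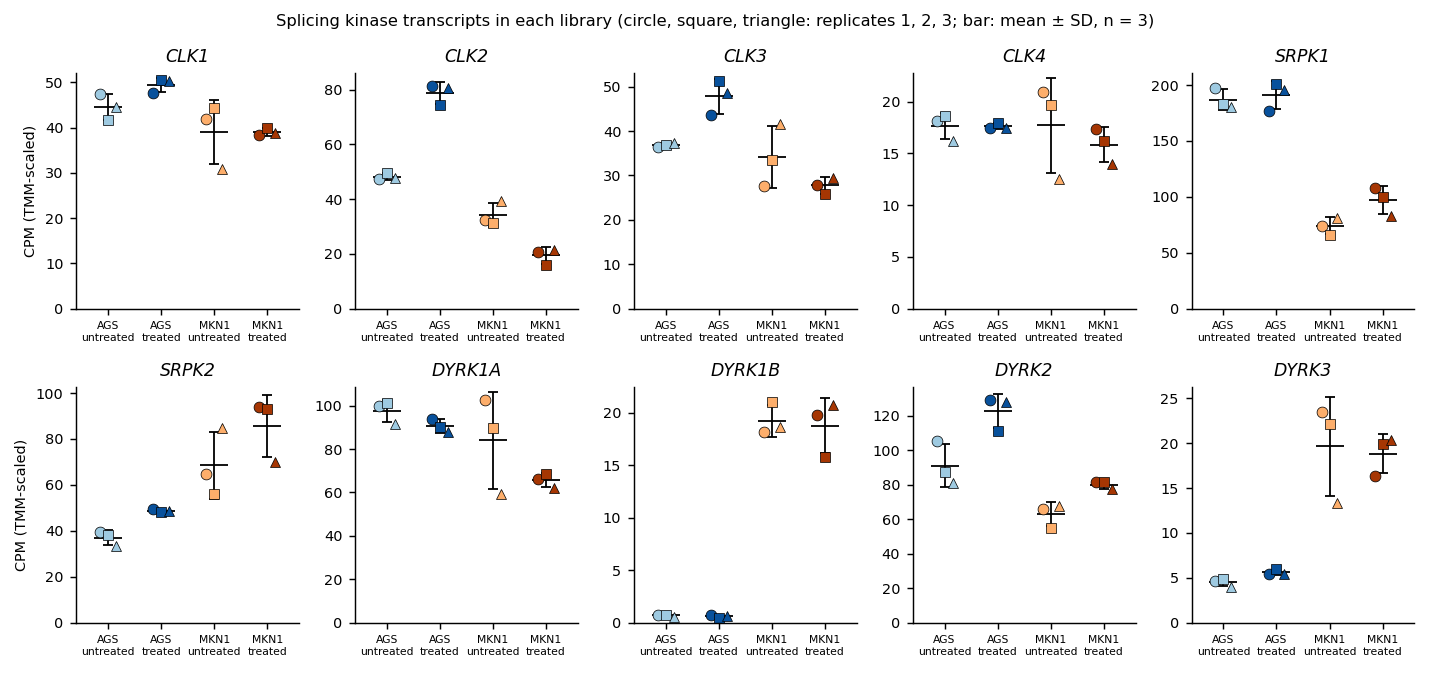
Level of each kinase in each library in TMM-scaled CPM (y axes start at 0 and differ between panels), by line and treatment; symbols mark replicates, bars the mean ± SD of 3 libraries. CLK2 rises from 48.25 to 78.8 CPM in AGS and falls from 34.29 to 19.43 CPM in MKN1, and DYRK1B is below 1 CPM in AGS.

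CLK2 changed in opposite directions in the lines. In AGS it stood at 47.27, 49.57 and 47.9 CPM untreated and at 81.39, 74.33 and 80.67 CPM treated. In MKN1 it stood at 32.42, 31.19 and 39.27 CPM untreated and at 20.86, 15.89 and 21.56 CPM treated. Neither pair of groups overlapped. In these bulk libraries fewer cells with the transcript and less transcript per cell cannot be told apart. CLK2 rose 1.63-fold in AGS (log2 fold change 0.71, SE 0.128, edgeR adjusted p = 0.00314) and fell 1.76-fold in MKN1 (log2 fold change -0.82, SE 0.13, edgeR adjusted p = 0.00557). The effect in MKN1 minus that in AGS was -1.53 on the log2 scale (SE 0.183, edgeR adjusted p = 0.00036), rank 81 by p of the 20280 genes. Under the 23 alternatives the AGS value stayed between 0.68 and 0.85 and was called in each. In MKN1 the value was -0.71 without untreated replicate 3 (adjusted p = 0.00336). With MKN1 fitted alone the adjusted p was 0.0942, in a fit that called 34 of 18484 genes.

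CLK3, the CLK with the longest annotated exon sequence, had log2 fold changes of the same signs as CLK2. It stood at 36.42, 36.88 and 37.3 CPM in untreated AGS and at 43.62, 51.29 and 48.61 CPM after treatment, without overlap. The MKN1 libraries stood at 27.66, 33.45 and 41.51 CPM untreated and at 27.93, 25.83 and 29.45 CPM treated, with overlap. Neither change passed: the log2 fold change was 0.38 in AGS (SE 0.136, adjusted p = 0.0677) and -0.30 in MKN1 (SE 0.137, adjusted p = 0.205), where it was -0.14 without untreated replicate 3 (adjusted p = 0.449). The difference between the lines did pass, at -0.68 (SE 0.193, edgeR adjusted p = 0.0321). It missed the threshold in 10 of 22 alternatives, with adjusted p up to 0.084 and values from -0.81 to -0.52. The AGS change was called in 5 of 23 alternatives.

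CLK1 and CLK4, close relatives whose transcripts are known to be held in the nucleus with introns, showed no change that passed. CLK1 stood at 47.37, 41.71 and 44.57 CPM in untreated and at 47.72, 50.46 and 50.29 CPM in treated AGS, groups that did not overlap (log2 fold change 0.15, 95% interval -0.12 to 0.42, adjusted p = 0.414). MKN1 libraries had 41.83, 44.28 and 30.93 CPM untreated and 38.38, 39.95 and 38.77 CPM treated (0.001, -0.27 to 0.27, adjusted p = 0.997). Without untreated replicate 3 the MKN1 value was -0.14 (adjusted p = 0.33). CLK4 stood at 16.17 to 18.6 CPM in the AGS libraries and at 12.48 to 20.93 CPM in the MKN1 libraries. Its log2 fold change was -0.003 in AGS (95% interval -0.38 to 0.38) and -0.16 in MKN1 (-0.54 to 0.22), or -0.36 without untreated replicate 3 (adjusted p = 0.0764). These intervals leave room for changes in either direction at the gene level, and a shift between intron-keeping and spliced forms would not appear in them.

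The summed CPM of the 4 CLK genes followed CLK2. It was 145.9 to 149.2 CPM in untreated and 190.2 to 197 CPM in treated AGS, and 122.8 to 128.6 CPM in untreated and 97.89 to 104.5 CPM in treated MKN1. The mean of the sum changed by 46.4 CPM in AGS, of which CLK2 gave 30.5 CPM, and by -23.1 CPM in MKN1, of which CLK2 gave -14.9 CPM. The MKN1 untreated replicate 3 sum, 124.2 CPM, lay between the other two, although its single CLK genes were the extremes of the group. Per kilobase of merged exons, CLK2 made up 51.0% ± 1.59 (SD, n = 3) of the CLK sum in untreated AGS and 60.3% ± 1.93 in treated AGS. In MKN1 its share went from 45.0% ± 6.76 to 32.6% ± 3.87, while that of CLK1 went from 36.2% ± 5.88 to 46.7% ± 3.13. By this length CLK1 was thus the leading CLK in treated MKN1 and CLK2 in both AGS groups. In untreated MKN1 replicates 1 to 3 CLK2 held 42.23%, 40.12% and 52.74% and CLK1 38.68%, 40.44% and 29.49%. Their shares overlapped there in replicates 1 and 2. By the median length of protein-coding transcripts CLK3 led the CLK genes in all 4 groups. That median was 768.5 bases for CLK3, against 10498 in its longest transcript.

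SRPK1, the SRPK with the higher level per length in AGS, stood there at 197.7, 182.8 and 180.2 CPM untreated and at 176.9, 200.9 and 195.6 CPM treated (log2 fold change 0.03, 95% interval -0.22 to 0.29, adjusted p = 0.877). In MKN1 it stood at 74.31, 66.24 and 81.37 CPM untreated and at 108.2, 100.3 and 83.27 CPM treated, without overlap. That log2 fold change of 0.39 (SE 0.119) missed the threshold with edgeR's adjusted p = 0.0661. It was called in 6 of 23 alternatives, among them the fit without MKN1 untreated replicate 3 (0.47, adjusted p = 0.0257). SRPK2 had positive log2 fold changes in both lines, and neither passed. In AGS it stood at 39.33, 38.31 and 33.42 CPM untreated and at 49.61, 48.21 and 48.53 CPM treated (0.40, SE 0.154, adjusted p = 0.0855). In MKN1 it stood at 64.56, 56.03 and 84.77 CPM untreated and at 93.81, 93.29 and 70.04 CPM treated, with overlap (0.32, SE 0.153, adjusted p = 0.225). Without MKN1 untreated replicate 3 the value was 0.50 (adjusted p = 0.0268). The AGS difference was called with the line fitted alone and without that MKN1 library.

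DYRK2, a kinase that acts on p53 and as scaffold of a ubiquitin ligase, was called in AGS. It stood at 105.1, 87.36 and 80.66 CPM untreated and at 129.1, 111.1 and 127.6 CPM treated, without overlap. It rose 1.35-fold (log2 fold change 0.43, SE 0.121, edgeR adjusted p = 0.0256). The call was lost in 6 of 23 alternatives: with transcript GC and length trends as offsets (0.26, adjusted p = 0.15; with the replicate block as well, adjusted p = 0.117), and without AGS untreated replicate 2 (0.0893) or 3 (0.121) or AGS treated replicate 1 (0.0914) or 3 (0.0895). Across genes, lower GC content went with a higher log2 fold change in AGS (Spearman's rho -0.269 over 20207 genes, which are not independent replicates). In MKN1, DYRK2 stood at 65.82, 54.93 and 67.57 CPM untreated and at 81.34, 81.24 and 77.22 CPM treated, again without overlap. Its log2 fold change there was 0.35 (SE 0.122, adjusted p = 0.104), or 0.40 without untreated replicate 3 (adjusted p = 0.0556), and the lines did not differ detectably in it (-0.08, 95% interval -0.45 to 0.29).

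DYRK1A, a dosage-sensitive kinase that phosphorylates NFAT and the DREAM component LIN52, stood at 99.94, 101.1 and 91.6 CPM in untreated and at 93.83, 90.16 and 87.77 CPM in treated AGS (log2 fold change -0.11, adjusted p = 0.664). In MKN1 the untreated libraries spread widely, at 102.7, 89.77 and 59.39 CPM, against 66.28, 68.67 and 62.17 CPM treated. The change there, -0.35 (SE 0.156, adjusted p = 0.196), was -0.55 without MKN1 untreated replicate 3 (SE 0.0971, adjusted p = 0.00354), with the untreated libraries left then both above all treated ones. DYRK3, which dissolves condensates such as stress granules and speckles, stood at 4.668, 4.828 and 3.979 CPM in untreated and at 5.414, 5.936 and 5.426 CPM in treated AGS, without overlap (0.32, SE 0.205, adjusted p = 0.292). Its MKN1 levels were 23.48, 22.18 and 13.31 CPM untreated and 16.33, 19.89 and 20.32 CPM treated (-0.06, adjusted p = 0.89), and without untreated replicate 3 the value was -0.28 (adjusted p = 0.225). DYRK1B, also called MIRK and known for holding cells in quiescence, showed -0.18 in AGS (95% interval -0.69 to 0.33) and -0.04 in MKN1 (-0.42 to 0.35), where it was -0.06 without that library (adjusted p = 0.859).

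**Figure D2:**
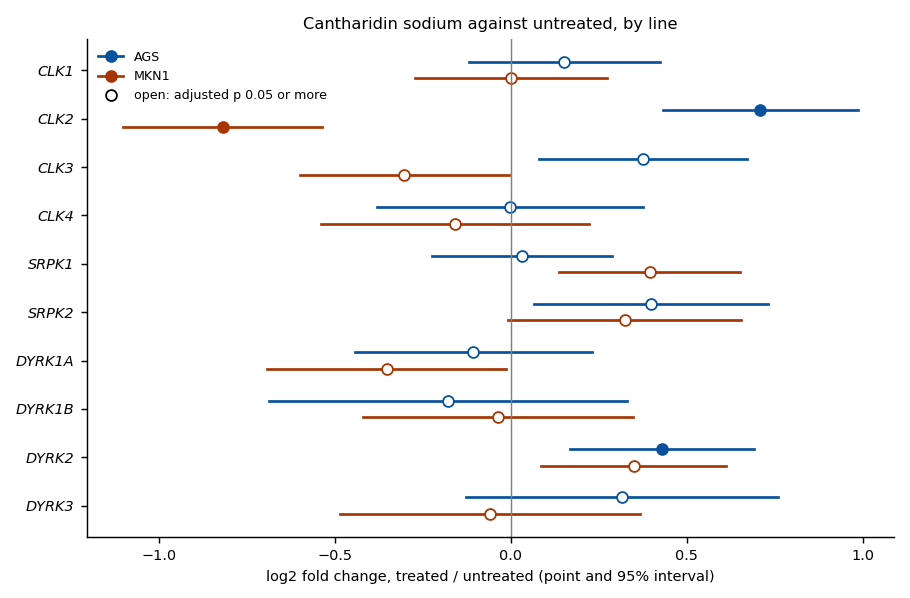
Log2 fold change of treated over untreated cells with its 95% interval for each kinase, AGS in blue and MKN1 in brown; filled points have an adjusted p below 0.05. CLK2 has filled points on opposite sides of 0 (0.71 and -0.82), and the only other filled point is DYRK2 in AGS (0.43).

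In all, 2 of the 10 kinases were called in AGS, where 20.8% of all genes tested were, and 1 of 10 in MKN1, where 6.7% were. The difference between the lines was called for 2 of 10 against 15.7% of all genes. In AGS 6 of 10 kinases had treated and untreated groups that did not overlap, against 52.4% of all genes, and in MKN1 3 of 10 (CLK2, SRPK1 and DYRK2) against 21.4%. These counts lay near the background. Without MKN1 untreated replicate 3, 4 of 10 were called in MKN1 (CLK2, SRPK1, SRPK2 and DYRK1A) where 15.1% of all genes were. That library was the highest untreated one for SRPK1 and SRPK2 and the lowest for DYRK1A, each time toward the treated mean. The calls of SRPK1, SRPK2 and DYRK1A are therefore not independent of leaving it out. The median log2 fold change of the 10 was 0.23 in AGS and -0.05 in MKN1, against -0.01 and 0.006 over all genes. The medians over all genes make no allowance for GC content. Genes of like GC content (a window of 2 percentage points) had AGS medians from -0.36 for DYRK1B to 0.21 for CLK1.

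The largest differences among the kinases lay between the lines, in DYRK1B and DYRK3. Untreated MKN1 had 28.2 times the DYRK1B level of untreated AGS (log2 fold change 4.82, SE 0.22, edgeR adjusted p = 7.28e-10). In AGS, DYRK1B stood at 0.7288, 0.7428 and 0.5648 CPM untreated and at 0.73, 0.4388 and 0.6433 CPM treated, from 17 to 37 counts. In MKN1 it stood at 18.18, 21.01 and 18.61 CPM untreated and at 19.76, 15.82 and 20.78 CPM treated, from 482 to 808 counts. A count of 3 corresponds to 0.0581 to 0.105 CPM, so DYRK1B was above this floor in every AGS library. DYRK3 was also higher in untreated MKN1 (4.37-fold, log2 fold change 2.13, SE 0.208, edgeR adjusted p = 1.08e-06).

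The SRPK genes differed between the lines in opposite directions. SRPK1 was 2.53-fold lower in untreated MKN1 than in untreated AGS (log2 fold change -1.34, SE 0.121, edgeR adjusted p = 4.93e-07) and SRPK2 1.85-fold higher (0.89, SE 0.155, adjusted p = 0.000214). The log2 ratio of SRPK1 to SRPK2 CPM was 2.33, 2.25 and 2.43 in the untreated AGS libraries and 0.203, 0.242 and -0.0591 in the untreated MKN1 libraries. Per kilobase of merged exons, SRPK1 made up 82.7% ± 0.873 of the SRPK pair in untreated AGS, 78.7% ± 1.38 in treated AGS, 50.9% ± 2.83 in untreated MKN1 and 51.9% ± 1.28 in treated MKN1. The treated and untreated AGS shares did not overlap (77.17% to 79.79% against 81.89% to 83.63%). CLK2 (-0.49, SE 0.129, adjusted p = 0.00427) and DYRK2 (-0.54, SE 0.122, adjusted p = 0.00162) were lower in untreated MKN1.

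Thus 6 of 10 kinases differed between the untreated lines, against 66.3% of all genes, and 6 of 10 did not overlap, against 71.4%. Between the treated lines 9 of 10 were called, against 68.1%, and 10 of 10 did not overlap, against 74%. CLK2 was 4.05-fold lower in treated MKN1 than in treated AGS (log2 fold change -2.02, SE 0.133, edgeR adjusted p = 2.38e-08). CLK3 (-0.79), CLK1 (-0.34) and DYRK1A (-0.46) passed only between treated lines. Of these, CLK3 alone also had a called difference of treatment effects in the fit of all libraries. For DYRK1A that difference was called without MKN1 untreated replicate 3 (-0.45, edgeR adjusted p = 0.0298). CLK1 lost its call in 6 of 20 alternatives and DYRK1A in 2 of 20. CLK4 was called in neither (-0.15 treated, 95% interval -0.53 to 0.23).

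**Figure D3:**
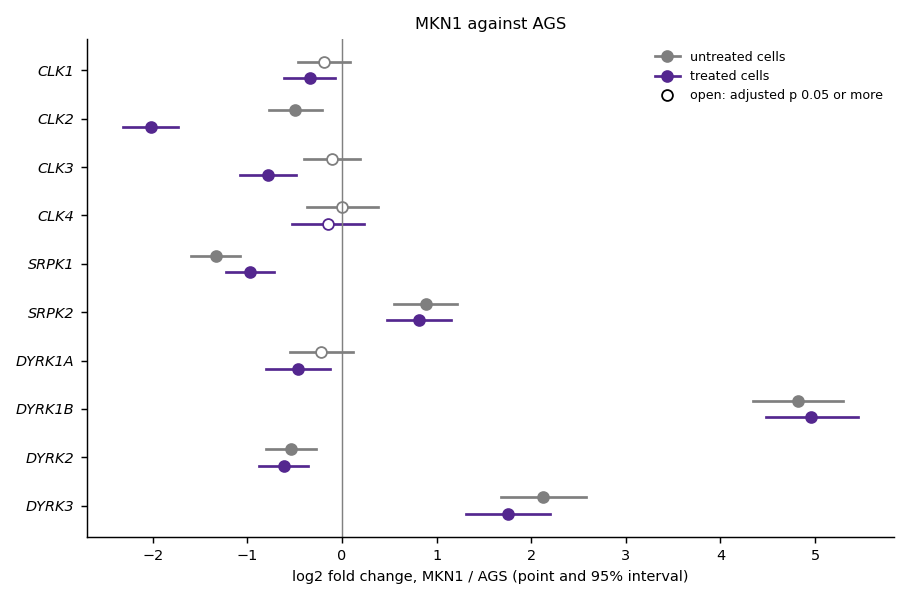
Log2 fold change of MKN1 over AGS with its 95% interval for each kinase, untreated cells in grey and treated cells in purple; filled points have an adjusted p below 0.05. DYRK1B (4.82 and 4.96) and DYRK3 (2.13 and 1.75) lie far to the right in both states, and CLK2 moves from -0.49 untreated to -2.02 treated.

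Compared per kilobase of merged exon length, SRPK1 led in untreated AGS at 27.9 ± 1.42 CPM per kb, followed by CLK2 at 13.1 ± 0.323, DYRK2 at 9.59 ± 1.33 and CLK1 at 8.62 ± 0.548. DYRK2 and CLK1 overlapped there. SRPK2 (5.84), DYRK1A (3.67), CLK4 (2.22), CLK3 (1.8), DYRK3 (1.04) and DYRK1B (0.213) followed without overlap. In treated AGS CLK2 rose to 21.5 ± 1.06 CPM per kb and stayed below SRPK1 (28.6 ± 1.88). In untreated MKN1 SRPK1 (11.1), SRPK2 (10.8), CLK2 (9.34), CLK1 (7.55), DYRK2 (6.61) and DYRK1B (6.04) each overlapped the next in order. DYRK3 (4.53), DYRK1A (3.16), CLK4 (2.23) and CLK3 (1.67) closed that order, also overlapping in turn. In treated MKN1 SRPK1 (14.5) and SRPK2 (13.5) led, and CLK2 (5.3) came after DYRK2 (8.42), CLK1 (7.55) and DYRK1B (5.89). By the longest transcript instead, SRPK2 came before SRPK1 in MKN1, with overlap. By the median length of protein-coding transcripts DYRK2 led in all 4 groups. That median was 568 bases for DYRK2, against 8912 in its longest transcript, so short annotated transcripts weigh on this order. The order between genes thus depends on the length used.

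In the DYRK family, DYRK2 made up 66.0% ± 2.35 of the summed CPM per kb in untreated AGS and 72.5% ± 1.76 in treated AGS. In MKN1 it made up 32.8% ± 5.72 and 39.9% ± 2.06. DYRK1B, at 1.47% ± 0.139 of the family in untreated AGS, made up 29.8% ± 3.33 in untreated MKN1. DYRK1A went from 25.4% ± 1.83 to 19.2% ± 1.15 in AGS and from 15.3% ± 2.79 to 11.7% ± 0.857 in MKN1. These shares depend on the length used. By the median length of protein-coding transcripts DYRK1B (9.6 CPM per kb) stood below DYRK1A (34.33) in untreated MKN1.

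**Figure D4:**
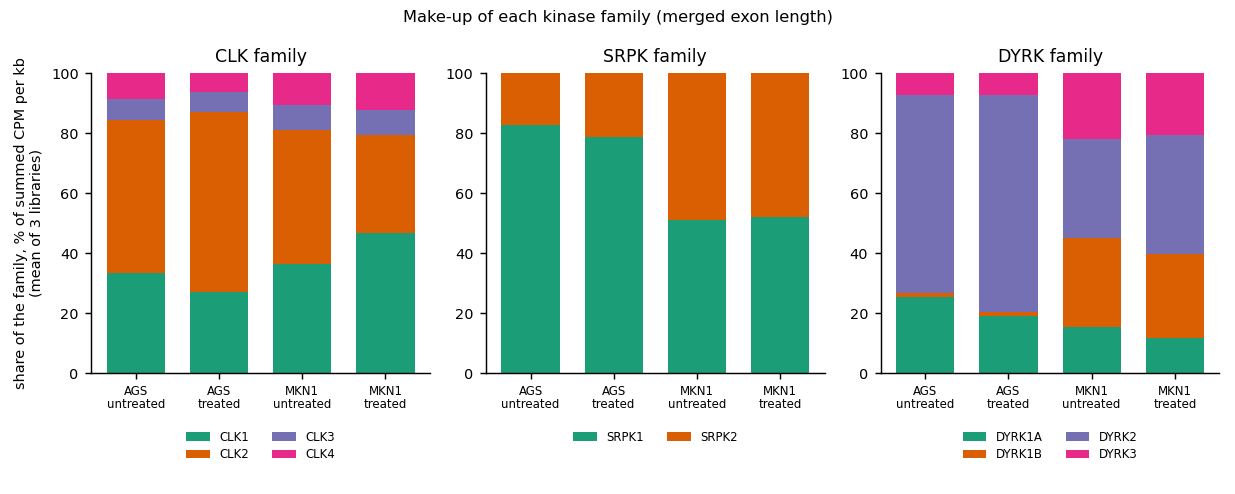
Share of each member in the summed CPM per kb of merged exons of its family (y axis, %, mean of 3 libraries) in the 4 groups. SRPK1 takes 82.7% of the SRPK pair in untreated AGS and 50.9% in untreated MKN1, and CLK2 goes from 51.0% to 60.3% in AGS and from 45.0% to 32.6% in MKN1.

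Likeness of pattern was measured as Pearson's r of log2 CPM, centred on the mean of each line, over the 12 libraries, which share groups, scaling and depth. Among the kinases the highest r were for CLK4 with DYRK1A (0.893), SRPK2 with DYRK2 (0.855), CLK1 with DYRK3 (0.848), CLK2 with CLK3 (0.83), SRPK1 with SRPK2 (0.756) and CLK1 with CLK4 (0.701). Without MKN1 untreated replicate 3 these were 0.889, 0.893, 0.721, 0.782, 0.793 and 0.44. Among 10251 genes at a mean of 5 CPM or more in both lines, the genes most like CLK2 were PDPR (0.982) and ACTR1B (0.969). ITGB4 (0.970) and DCAF7 (0.954) were most like CLK3, and GABPA (0.966) and SREK1 (0.966) most like CLK4. ZMYM4 (0.976) was most like SRPK1, HOOK1 (0.976) SRPK2, ASTE1 (0.970) DYRK1A, FAM216A (0.980) DYRK2, ALG13 (0.942) DYRK3 and COX20 (0.911) CLK1. For DYRK1B the likeness was lower, at most 0.841 for a gene without a symbol and 0.823 for ATP5ME.

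The substrates of these kinases were followed through a list of 14 SR proteins and a list of 24 other RS-domain and spliceosomal proteins. In AGS 2 of the 14 SR protein genes were lower and 0 higher (14.3% called, against 20.8% of all genes). SRSF9 fell from 136.7 ± 11.3 to 90.96 ± 2.31 CPM (log2 fold change -0.59, edgeR adjusted p = 0.00262) and SRSF3 from 550.9 ± 31.7 to 386.1 ± 20.1 CPM (-0.51, adjusted p = 0.014), the SRSF3 call being lost without AGS untreated replicate 3 or AGS treated replicate 2 (adjusted p up to 0.0621). In MKN1 0 of 14 were called by edgeR in the fit of all libraries, 6 had an unadjusted p below 0.05, DESeq2 called 4 lower and limma voom 0. EdgeR called 3 lower with GC and length offsets, 1 with these and the replicate block, and 1 with DESeq2 size factors. The median log2 fold change was -0.18 against 0.006 over all genes. Without MKN1 untreated replicate 3, 7 of 14 were lower in treated MKN1 and 0 higher (15.1% of all genes called in that fit), with log2 fold changes from -1.40 (SRSF6) to -0.50 (TRA2A). The other 5 were SRSF2, SRSF4, SRSF5, SRSF7 and TRA2B, named after their values were seen. In each of the 7 the left-out library lay below both other untreated libraries. For SRSF2 it stood at 185.5 CPM, against 323.7 and 318.3 CPM in those and 199.5, 115.9 and 184.7 CPM in the treated libraries. Low SR protein levels were among the values that set this library apart. The 7 calls are therefore not independent of leaving it out.

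Of the 24 other RS-domain and spliceosomal genes, 2 were higher and 2 lower in treated AGS (16.7% called, against 20.8% of all genes). RSRP1, a small RS-rich protein, rose from 23.15 ± 1.59 to 45.28 ± 1.31 CPM (log2 fold change 0.97, edgeR adjusted p = 0.00205). U2AF2, the large subunit of the factor that recognises the polypyrimidine tract, fell from 268 ± 7.07 to 158.3 ± 9.1 CPM (-0.76, adjusted p = 0.00708). With GC and length offsets and the replicate block its call was lost (adjusted p = 0.0521), and its value under the alternatives was as small as -0.46. ARGLU1 (0.75) and ACIN1 (-0.49) complete the count, and their calls were lost in 6 and 1 of 23 alternatives. In MKN1 only SRRM2, a scaffold of nuclear speckles, was called, falling from 381.4 ± 72.4 to 255.2 ± 39.3 CPM (-0.58, edgeR adjusted p = 0.0377, 4.17% called against 6.7% of all genes). That call was lost in 13 of 23 alternatives, with adjusted p up to 0.187. Without MKN1 untreated replicate 3, 8 of 24 were lower and 0 higher (15.1% of all genes called), from -0.73 (SRRM2) to -0.34 (BCLAF1). In each of these 8 the left-out library lay below both other untreated libraries. These calls too are therefore not independent of leaving it out.

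Among 9 genes of phosphatases that act on SR proteins, 4 were lower and 0 higher in treated AGS (44.4%, against 20.8% of all genes), with a median log2 fold change of -0.26. PPP1R10, a nuclear targeting subunit of PP1 also called PNUTS, fell from 164 ± 13.4 to 56.43 ± 2.2 CPM in AGS (-1.54, edgeR adjusted p = 5.25e-05) and rose from 54.35 ± 5.26 to 95.72 ± 16.2 CPM in MKN1 (0.82, adjusted p = 0.00557). Its difference between the lines, 2.36, had edgeR's adjusted p = 2.61e-05, with signs opposite to those of CLK2. PPP1CA, a catalytic subunit of PP1, fell by 0.64 on the log2 scale in AGS (adjusted p = 0.00827). With GC and length offsets and the replicate block the PPP1CA value was -0.34 and not called (adjusted p = 0.0538). PPP2R1A (-0.70) and PPM1G (-0.42) complete the count, and the PPM1G call was lost in 3 of 23 alternatives. PPP1R10 was the only member of this list called in MKN1 (11.1%, against 6.7% of all genes), and that call was lost with MKN1 fitted alone (adjusted p = 0.0702).

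Partners and regulators of the kinases, 11 genes, had 4 lower and 0 higher in treated AGS (36.4%, against 20.8% of all genes). FAM53C, a protein that binds DYRK1A, fell from 84.81 ± 3.56 to 47.05 ± 1.77 CPM (-0.85, edgeR adjusted p = 0.000566). SAFB, an RNA-binding scaffold protein that interacts with SRPK1, fell from 126.3 ± 3.91 to 70.22 ± 5.63 CPM (-0.85, adjusted p = 0.00092). Its relative SAFB2 (-1.04) and DDB1 (-0.47), a subunit of the ubiquitin ligase that DYRK2 joins, complete the count, and the DDB1 call was lost in 7 of 23 alternatives. Of 13 related kinases tested (HIPK4 did not pass the filter), GSK3A was lower in AGS (-0.54, adjusted p = 0.00685) and CDK9 in MKN1 (-0.46, adjusted p = 0.0492), 7.69% in each, against 20.8% and 6.7% of all genes. The CDK9 call was lost in 16 of 23 alternatives, with adjusted p up to 0.228.

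The pathways of the known DYRK1A substrates NFAT and LIN52 were followed through 11 calcineurin and NFAT genes and 11 genes listed for the DREAM complex. In AGS PPP3CA, a calcineurin catalytic subunit, rose by 0.41 (adjusted p = 0.0206), a call lost in 5 of 23 alternatives, GC and length offsets among them (adjusted p up to 0.103). NFATC1 was lower, from 1.569 to 0.071 CPM, which is within the range of the 3-count floor (18.2% called, against 20.8% of all genes). In MKN1 0 of these 11 passed with edgeR, DESeq2 or limma voom, 3 had an unadjusted edgeR p below 0.05, and 3 passed without MKN1 untreated replicate 3 (2 higher and 1 lower). RBL2, the pocket protein p130, rose from 23.54 ± 0.88 to 52.48 ± 3.46 CPM in AGS (1.16, edgeR adjusted p = 0.00101), while MYBL2, the partner of the MuvB core in cycling cells, fell from 546.3 to 307.9 CPM (-0.83, adjusted p = 0.00572; 18.2% called). E2F5 was the only DREAM gene called in MKN1 (0.54, adjusted p = 0.0476; 9.09%, against 6.7% of all genes), and that call was lost in 17 of 23 alternatives, with adjusted p up to 0.235.

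**Figure D5:**
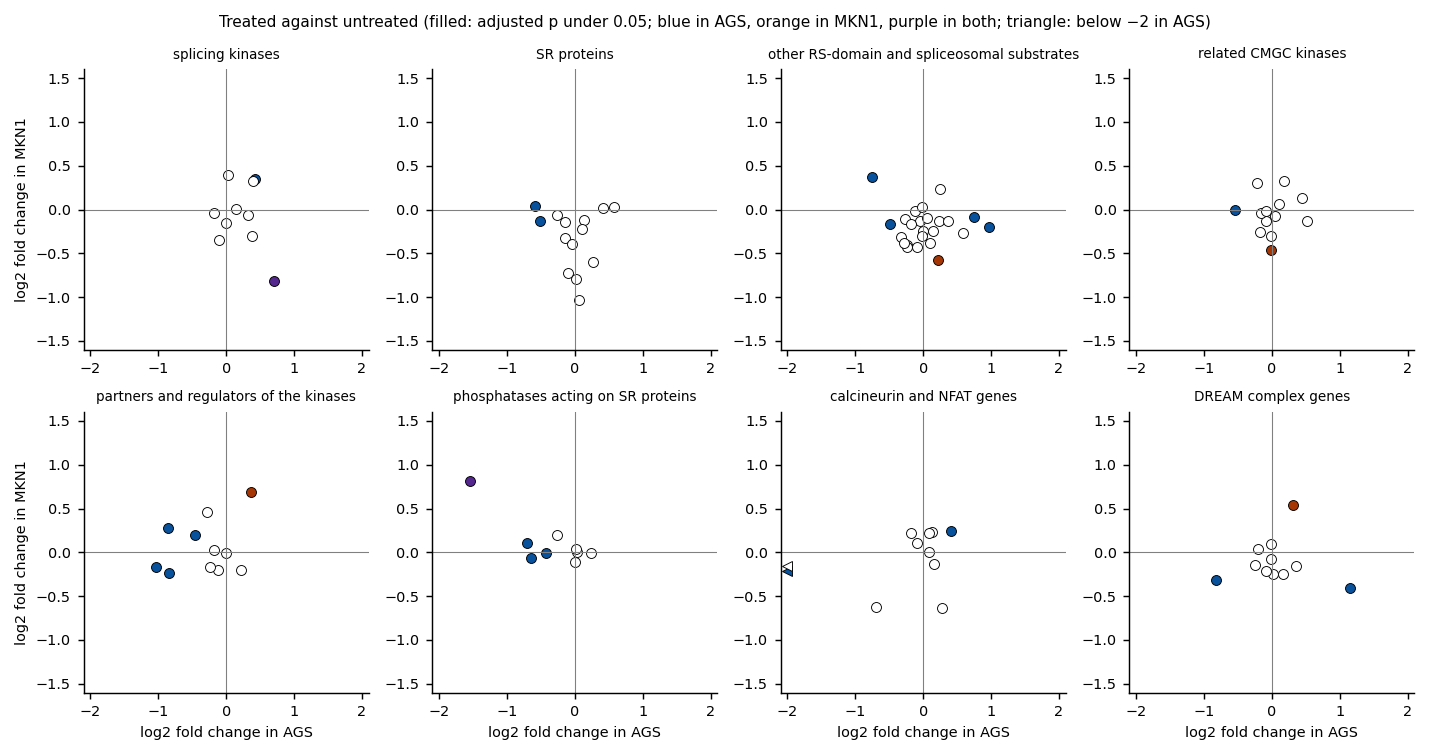
Log2 fold change of treated over untreated cells in AGS (x) and MKN1 (y) for the kinases and the genes of 7 lists, 1 point a gene; filled points have an adjusted p below 0.05 in AGS (blue), MKN1 (orange) or both (purple), and triangles lie below the drawn range in AGS. The purple points are CLK2 (0.71 and -0.82) and PPP1R10 (-1.54 and 0.82), in opposite corners.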

How the data were processed

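The files hold raw counts of reads per gene in 12 libraries, deposited by the authors without normalization. HISAT2 2.0.4 and the build hg38 (GRCh38) are named in the submitters' processing notes. The sources used here do not give the counting tool, its annotation or its strand setting. Symbols matched 32069 of 32269 identifiers, and the 200 others held at most 0.355% of a library's counts. GENCODE 29 gave positions for 32136. Promoters came from a RefSeq table on GRCh38.p14.

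All 12 libraries entered a single edgeR 4.0.16 fit (R 4.3.3) with TMM factors, filterByExpr (minimum count 10), 4 group means and no block. It left 8 residual and a median of 4.91 prior degrees of freedom, with a common biological coefficient of variation of 19.7%. Adjusted p are Benjamini-Hochberg over 20280 genes. No deposited library was left out, and no 2 libraries agreed within sampling noise. Log2 CPM used a prior count of 2. Tests were tried on simulated data. Alternatives were DESeq2 1.42.0, limma 3.58.1 (voom), other scalings and filters, a replicate block, each line alone, GC and length offsets and leaving out each library. Floors cover counting error only. Intervals and p-values come from the same edgeR fit and rest on the spread between these libraries, estimated over all 4 groups. They cover no other source of error.

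The members, lists and tests were chosen with earlier results of these data known. Named are all members, up to 2 genes per list and line with the smallest adjusted p at a mean of 5 CPM or more, and the 3 genes most like each member, of which only some are printed. A few results that this rule would name are not reported here. Other list genes were named after their values were seen, to complete counts.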

Additional observations from a re-analysis of the deposited data

Results flagged for a closer look

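The treatment effect differed between the lines by a test of the difference itself for CLK2 (MKN1 minus AGS -1.526 on the log2 scale, edgeR adjusted p = 0.00036), which was higher in 3 of 3 treated AGS libraries than in any untreated AGS library and lower in 3 of 3 treated MKN1 libraries. It also differed for CLK3 (-0.6784, edgeR adjusted p = 0.0321), a call lost in 10 of 22 alternatives.

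The same test passed for 13 genes of the lists that were called in either line. Such a treatment call makes a called difference more likely, so this count is not a result about the lists. Over the full lists the difference was called for 7.69% (related kinases) to 36.4% (partners and regulators), against 15.7% of all genes. The effect was lower in MKN1 for RBL2 (-1.564), RSRP1 (-1.169) and SRRM2 (-0.7903). It was higher in MKN1 for PPP1R10 (2.356), U2AF2 (1.13), FAM53C (1.126), SAFB2 (0.8727), PPP2R1A (0.8088), DDB1 (0.6647), SRSF9 (0.6295), SAFB (0.6134) and GSK3A (0.5294). For NFATC1 the difference of 4.299 rests on treated AGS libraries at the 3-count floor, so its size depends on the prior count. Of these 13 differences, that of GSK3A missed the threshold in 12 of 22 alternatives, those of DDB1 and SAFB in 10 each, PPP2R1A in 7, SAFB2 in 6 and SRRM2 in 4, while the other 7 were called in each of the 22.

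The test of the difference also passed for PHYKPL (-1.356, edgeR adjusted p = 0.000485) and EIF2D (-1.138, edgeR adjusted p = 0.000622), neighbours of CLK4 and DYRK3 on the chromosome, in each of 22 alternatives. A further neighbour that passed was ARID3B, 369 bases from CLK3 (0.8563, edgeR adjusted p = 0.04045). Its sign was opposite to that of CLK3, and it was not followed through the alternatives.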

How the results depend on the processing

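Over 50 pairs of a kinase and a comparison and 1080 alternative values, 1038 stayed on their side of the threshold, 25 lost and 17 gained a call, and 0 called values changed sign. For 38 of the 50 pairs each alternative stayed on the same side. The kinases called in AGS were 2, and 4 with the line fitted alone (where 48.2% of all genes were called), 3 with the DESeq2 test and 3 with a filter of 5 CPM in 3 libraries (CLK3 added, adjusted p = 0.0479 and 0.0451), 1 with GC and length offsets, 1 with these offsets and the replicate block, and 1 to 4 with a library left out. In MKN1 1 was called, and 2 with library totals, 2 with the DESeq2 test, 2 with a filter of 5 CPM in 3 libraries, 2 with GC and length offsets, 1 to 4 with a library left out, and 0 with the line fitted alone by edgeR (3 kinases at an unadjusted p below 0.05, while DESeq2 on all libraries called 2 and limma voom 1). MKN1 fitted alone called 34 of 18484 genes in all, while AGS fitted alone, on as many libraries, called 8368 of 17345. The kinases' median SD of log2 CPM was 0.285 in untreated and 0.165 in treated MKN1, against 0.0993 and 0.0736 in AGS. In the joint fit both lines share a single estimate of the spread for each gene. The part of this in the MKN1 calls was not tested. The lines' difference in treatment effect was called for 2 kinases, and for 1 with library totals, 1 without a filter on low counts and 1 to 3 with a library left out. Between untreated lines 6 to 7 were called and between treated lines 7 to 9 with a library left out. The CLK1 share of the CLK sum in untreated AGS, 33.4% by merged exons, was 23.02% by the median length of protein-coding transcripts, an alternative chosen after seeing the data. Without centring on the line, 1 of the 30 most alike genes was shared.

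Replicate numbers did not pair the samples: deviations of same-numbered libraries correlated at -0.044 to 0.176 over genes. With the replicate block the calls were 2 in AGS, 1 in MKN1, 2 for the difference, 6 between untreated and 9 between treated lines. Depth limits DYRK1B in AGS, at 17 to 37 counts per library. The cause of the other shifts was not tested.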

Other observations

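The nearest tested protein-coding genes on each side of the 10 kinases, a rule chosen after seeing the data, were 20 genes, of which 5 were called for treatment in AGS (against 20.8% of all genes), 3 in MKN1 (6.7%) and 3 for the difference between the lines (15.7%). Called in both lines with opposite signs, as CLK2 was, were EIF2D, a translation initiation factor gene 23073 bases from DYRK3 (0.50 in AGS, edgeR adjusted p = 0.00634, and -0.64 in MKN1, adjusted p = 0.00656), and PHYKPL, 369873 bases from CLK4 (0.84 in AGS, adjusted p = 0.000866, and -0.51 in MKN1, adjusted p = 0.0273), both named after their values were seen. The MKN1 call was lost in 1 of 23 alternatives for EIF2D and in 6 of 23 for PHYKPL. CLK2 lies 438 bases from SCAMP3, a membrane trafficking protein, which fell in treated AGS (log2 fold change -0.48, edgeR adjusted p = 0.0245, a call lost in 8 of 23 alternatives) where CLK2 rose by 0.71. In MKN1 SCAMP3 was at -0.10 (adjusted p = 0.692), where CLK2 fell by 0.82. On its other side HCN3, a channel gene whose span meets that of CLK2 without shared exon bases, was at 0.53 in AGS (adjusted p = 0.25) and -0.14 in MKN1 (adjusted p = 0.831). EDC3, a decapping factor gene that shares exon bases with CLK3 on the opposite strand, was lower in treated AGS (-0.33, adjusted p = 0.0335, a call lost in 9 of 23 alternatives), where CLK3 was at 0.38.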
